A study of Mus musculus with 3 samples.

Results

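Ccl2, Ccl7, Ccl12, Ccl3 and Ccl4 are inducible CC chemokines, small secreted proteins that draw leukocytes towards a source. These 5 genes were taken by symbol from the 31053 genes listed for each run. They were selected on their measured levels and detection across cell populations in these same runs, so those values are given as description, without tests. The measurements are single-cell RNA counts of tdTomato+ cells sorted from both hippocampi, in 3 sequencing runs that form 1 group. Every mouse carried Cx3cr1CreERT2/+, Rosa26tdTomato/+ and NestinTK-eGFP/+, and tamoxifen was given at 100 mg/kg on each of 4 days to switch on the reporter. The series drew on 12 animals, 6 male and 6 female, whose placement in runs is not stated. Spread between runs therefore need not be spread between animals, and p-values measure only the former.

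Limits of the model follow from the alleles. Cre from the Cx3cr1 locus acts in cells that use that gene, which in brain are microglia and related macrophages, so few other cells should be labelled. The heterozygous Cx3cr1 allele, the thymidine kinase transgene and tamoxifen were common to every run, and no group without them was compared.

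CC chemokines act through G protein-coupled receptors on leukocytes. Ccl2, Ccl7 and Ccl12 are ligands of Ccr2, the receptor that brings inflammatory monocytes to tissue, while Ccl3 and Ccl4, also called macrophage inflammatory proteins, attract macrophages, T cells and NK cells. In brain these genes are known as early products of activated microglia and macrophages.

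After filtering, 6993, 6720 and 6078 cells remained in runs 1, 2 and 3, with a median of 4425, 3438 and 3696 UMIs per cell. A UMI is a molecular barcode that stands for 1 captured transcript. Populations were gated by counting how many markers of a type had a UMI. At least 4 of 8 microglia markers and no other gate defined microglia-gated cells, which were 19497 of 19791 cells (98.5%), so the myeloid label of the sort held for nearly all cells. Within them, state gates took cells with interferon, MHC class II, immediate early, lipid-phagocyte or cycling markers, and cells with none of these are called resting-gated here as a name for the gate only. Border macrophage-gated cells, with at least 3 of 6 markers of the macrophages at brain borders, numbered 70, 27 and 48. Only 26 barcode sequences occurred in more than 1 run. Doublets were not called. Barcodes that held UMIs of Xist together with Y-linked UMIs, a pairing of female and male transcripts, made up 3.39%, 1.68% and 2.85% of cells.

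All 5 genes lie on mouse chromosome 11 (GRCm38) and have 3 exons each. Ccl2 (82035571-82037453), Ccl7 (82045712-82047525) and Ccl12 (82101845-82103400) lie together on the plus strand. Ccl3 (83647844-83649355, minus strand) and Ccl4 (83662584-83664683, plus strand) lie 1544.443 kb further on and are 13.228 kb apart. The coding sequences are similar but not near-identical, at 69.6% identity for Ccl3 with Ccl4 and 68.0% for Ccl2 with Ccl7. The longest exact run that 2 of the transcripts share is 23 bases, and how reads that match several genes were counted is not given in the sources used here.

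The 250 bases before the start of Ccl12 and of Ccl3 are shown, the 2 genes of the 5 with an entry in the promoter table used. Among them Ccl12 was widespread across cells and Ccl3 concentrated in few. Both are RefSeq sequence (GRCm38.p6), written in the direction of transcription, Ccl12 from chr11:82101595-82101844 (plus strand) and Ccl3 from chr11:83649379-83649628 (minus strand). Capitals mark a TATAAA match in Ccl12, 31 to 26 bases before the start, and a C/EBP match (TTNNGNAA) in Ccl3, 100 to 93 bases before the start. Both are counted from the RefSeq start, which for Ccl3 lies 23 bases upstream of the GENCODE start given above.
Ccl12: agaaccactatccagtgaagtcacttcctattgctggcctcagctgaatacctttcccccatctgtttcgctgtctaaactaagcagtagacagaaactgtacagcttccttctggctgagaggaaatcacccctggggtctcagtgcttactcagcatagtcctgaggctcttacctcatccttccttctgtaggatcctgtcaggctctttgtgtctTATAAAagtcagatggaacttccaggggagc
Ccl3: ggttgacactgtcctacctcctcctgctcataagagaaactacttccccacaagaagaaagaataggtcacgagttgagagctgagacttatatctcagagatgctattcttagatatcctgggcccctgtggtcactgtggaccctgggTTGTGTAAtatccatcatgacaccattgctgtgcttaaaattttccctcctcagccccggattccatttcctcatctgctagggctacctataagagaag
On both strands, neither window held a match to NF-kappaB (searched by its consensus), AP-1 (TGANTCA), Egr (GCGNGGGCG) or the interferon response element (likewise by its consensus). The C/EBP letters were not found in the Ccl12 window, nor TATAAA in that of Ccl3. Among 32851 promoter windows of the same length, 12.4% held TATAAA and 36.8% the C/EBP letters, 7.25% the NF-kappaB, 6.75% the AP-1, 4.70% the Egr and 2.98% the interferon element. A match describes letters in a window and is no evidence of a site in use.

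Microglia-gated cells expressed Ccl12 broadly and the other 4 genes in few cells. Levels below are CPM, the UMIs of a gene per 1000000 UMIs of a population in a run. Ccl12, a Ccr2 ligand of mice, stood at 118, 147 and 174 CPM in runs 1, 2 and 3 (mean 146 ± 28.3, SD, n = 3 runs, with 3823, 3556 and 4125 UMIs). After each cell was thinned to 2000 UMIs, 15.03%, 18.5% and 22.4% of cells had a Ccl12 UMI. Run 1 was lowest and run 3 highest on both measures.

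Ccl2, the major monocyte attractant, stood at 11.4, 15.6 and 18.9 CPM in microglia-gated cells (mean 15.3 ± 3.74, SD, n = 3 runs). It was detected in 0.694%, 0.795% and 1.37% of thinned cells. Ccl7, which also recruits monocytes through Ccr2, was near the detection limit, with 12, 57 and 27 UMIs in all microglia-gated cells of runs 1, 2 and 3 and 0.370, 2.35 and 1.14 CPM (mean 1.29 ± 0.998, SD, n = 3 runs). For Ccl2 the runs kept the order seen for Ccl12, and for Ccl7 run 2 was highest.

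Ccl3 and Ccl4 were lowest in run 1. Ccl3 stood at 30.2, 63.6 and 60.9 CPM (mean 51.6 ± 18.6, SD, n = 3 runs) and Ccl4 at 51.5, 88.4 and 72.5 CPM (mean 70.8 ± 18.5). For both, run 2 had the highest level. Detection did not follow the level: a Ccl3 UMI was found in 1.42%, 2.37% and 5.003% of thinned cells and a Ccl4 UMI in 1.61%, 1.91% and 3.77%, with run 3 well above the others. Runs 1 and 2 thus held fewer positive cells with more UMIs in the highest of them.

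Choroid-gated cells, epithelial cells that should lack these chemokines, were taken as the background. They were not free of microglial transcripts. Microglia markers summed to 13215, 5193 and 362 CPM in them, against 29245, 38251 and 30357 CPM in microglia-gated cells of runs 1, 2 and 3. The part of microglial transcripts in their Ccl12 was not tested. In their 44 cells no UMI of Ccl2, Ccl7, Ccl3 or Ccl4 was found. With 27 of them deep enough for thinning, a count of 0 allows a share of up to 11.1%, so this background cannot be set apart from the microglial shares of those 4 genes. Ccl12 had 7 UMIs there and was found in 2 of the 27 thinned cells (7.41%), against a pooled 18.4% of microglia-gated cells. Median depth was 3079, 2245 and 1822 UMIs in choroid-gated and 4414, 3439 and 3689 in microglia-gated cells. This floor, and the intervals used, cover counting error only.

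The interferon gate (72, 40 and 40 cells with at least 4 of 9 interferon-response markers) held the highest Ccl12 of the populations with at least 20 cells in each run. Its level there was 1559, 2393 and 1763 CPM (mean 1905 ± 435, SD, n = 3 runs), against 94.5, 126 and 155 CPM in resting-gated cells. The 2 ranges did not overlap, and the ratios were 16.5, 19.1 and 11.4. A Ccl12 UMI was found in 60.6%, 65.8% and 67.5% of thinned interferon-gated cells. Ccl2 was also above resting-gated cells in each run, at 103, 95.7 and 63.7 CPM against 3.47, 5.51 and 14.3, with the gap narrowing to a ratio of 4.47 in run 3. Ccl3 (26.4, 69.1 and 19.6 CPM) and Ccl4 (48.4, 181 and 53.9 CPM) overlapped with resting-gated cells (Ccl3 17.9, 32.1 and 54.1; Ccl4 31.5, 39.6 and 66.5).

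Ccl12 and interferon genes moved together across cells as well. Cells with no Ccl12 UMI had 412, 401 and 407 CPM summed over the 20 interferon-response genes, and cells with 3 or more had 3792, 1668 and 1670 CPM. Cells with 1 UMI (551, 463 and 439 CPM) and 2 UMIs (632, 653 and 600 CPM) lay between in each run. Among cells with 3 or more, 30.6%, 12.5% and 8.93% were in the interferon gate. Ccl12 level over the whole of a run did not follow the list, which stood at 495, 453 and 460 CPM in runs 1, 2 and 3.

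Border macrophage-gated cells carried most of the Ccl7 of run 1. In them Ccl7 stood at 58.2, 183 and 113 CPM (41, 20 and 26 UMIs; mean 118 ± 62.5, SD, n = 3 runs), against 0.223, 0.463 and 0.447 CPM in resting-gated microglia, with no overlap. These cells were 1.00%, 0.402% and 0.790% of each run and held 69.5%, 17.1% and 49.1% of its Ccl7 UMIs. Ccl12 (436, 622 and 1429 CPM) was above resting-gated cells in each run, and Ccl2 (19.9, 73.1 and 273 CPM) spread over more than 10-fold between runs. Ccl3 and Ccl4 were low or at 0 in runs 1 and 2 (4.26 and 0 CPM; 21.3 and 0 CPM) and reached 307 and 710 CPM in run 3. In this gate 30.0%, 3.70% and 6.25% of cells had both sex-linked kinds, and microglia markers summed to 17662, 8649 and 4911 CPM; the part of mixed cells in these levels was not tested.

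MHC class II-gated cells (38, 29 and 42), which carry genes for antigen presentation, varied widely between runs. Ccl4 stood at 1088, 637 and 72.0 CPM, Ccl3 at 767, 236 and 34.4, and Ccl2 at 450, 184 and 21.9. For these 3 genes run 1 was highest and run 3 lowest, the reverse of the order in resting-gated cells. Only 3, 2 and 1 cells of this gate held at least 10 UMIs of Ccl3 or Ccl4. How much of the levels these few cells carried was not tested. Ccl12 (434, 1372 and 535 CPM) and Ccl7 (20.3, 236 and 25.1 CPM) peaked in run 2. Border macrophage markers summed to 268, 381 and 251 CPM in this gate, against 6.40, 3.32 and 5.32 CPM in resting-gated cells, and their part in the levels was not tested. State gates may overlap, and 10, 8 and 3 of these cells were also in the interferon gate and 0, 2 and 8 in the immediate early gate. Without those cells, an alternative added after seeing the data, 28, 20 and 32 cells were left. Ccl12 then stood at 350, 203 and 332 CPM, still above resting-gated cells in each run. Ccl4 stood at 1620, 20.3 and 29.1 CPM, Ccl3 at 1148, 20.3 and 37.4, and Ccl2 at 577, 0 and 16.6, so their high levels were in run 1. Ccl7 stood at 18.4, 20.3 and 16.6 CPM, from 3, 2 and 4 UMIs.

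Over the populations with at least 20 cells in each run, neighbours in the order of mean level were seldom separated. For Ccl12 the order was interferon, border macrophage, MHC class II and resting-gated, in which border macrophage and MHC class II-gated cells overlapped and the other steps did not. Without the cells shared with the interferon or immediate early gate, the highest MHC class II-gated run (350 CPM) was below the lowest border macrophage-gated run (436 CPM). For Ccl2 and Ccl7 the last step down, from interferon to resting-gated cells, was the one without overlap. Neighbours in the orders of Ccl3 and Ccl4 all overlapped.

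**Figure D1:**
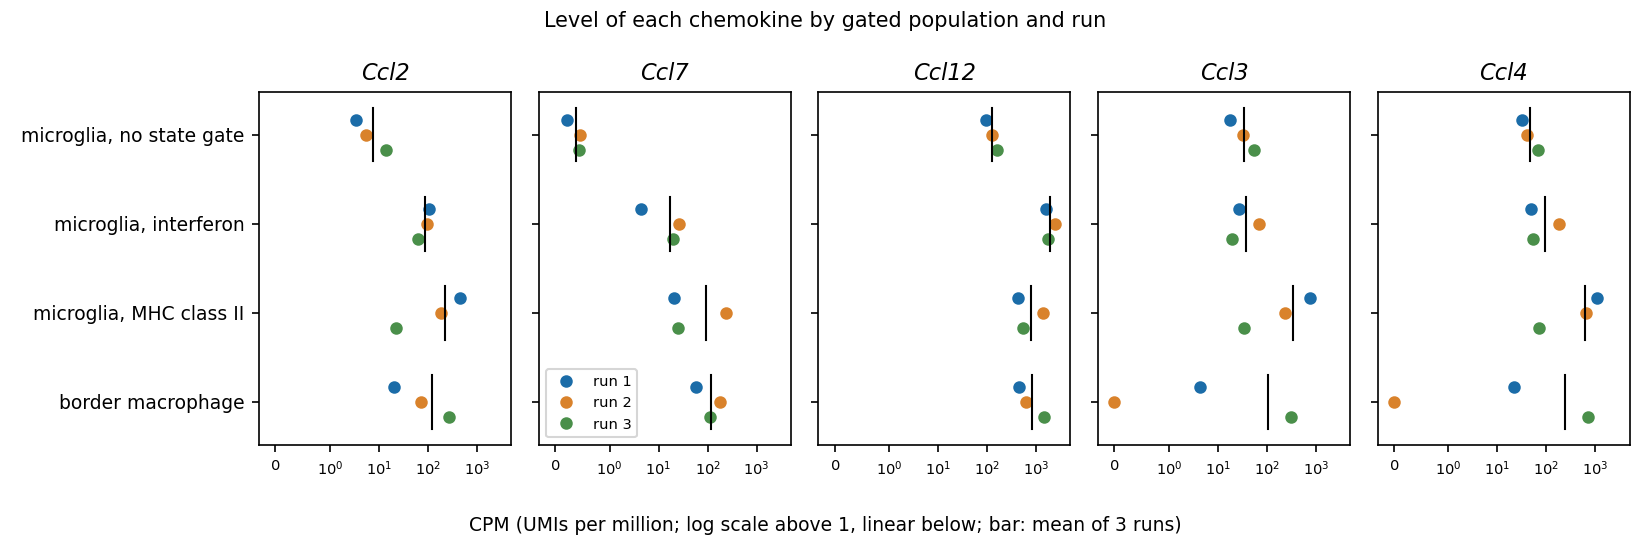
Level of each chemokine in CPM (log scale above 1, linear below) by marker-gated population, with 1 point per run and a bar at the mean of 3 runs; resting-gated cells are shown as microglia with no state gate. Ccl12 is highest in interferon-gated cells, Ccl7 is lowest in resting-gated cells, and Ccl3 and Ccl4 overlap between neighbouring populations.

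Cells of the immediate early gate (5, 13 and 143 cells with at least 5 of 8 markers, such as Fos and Egr1) were extreme in runs 1 and 2. They held 394, 1096 and 195 Ccl4 UMIs, 201, 710 and 195 Ccl3 UMIs, and 117, 223 and 109 Ccl2 UMIs. The 13 cells of run 2 thus carried 51.1% of that run's Ccl4 UMIs, the 5 cells of run 1 carried 23.2%, and the 143 cells of run 3 only 8.01%. Without this gate, Ccl3 in microglia stood at 24.0, 34.4 and 54.2 CPM and Ccl4 at 39.3, 43.3 and 66.2 CPM, and run 3 became the highest. Ccl2 stood at 7.81, 6.45 and 14.7 CPM without it, and its mean went from 15.3 to 9.65 CPM. Ccl7 went from 2.35 to 0.703 CPM in run 2, and the Ccl12 mean from 146 to 143 CPM. Over all microglia-gated cells, the 23 immediate early genes summed to 1293, 1556 and 5361 CPM, so run 3 stood apart in these genes; what set it apart was not tested.

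Small gates gave UMI counts only. Lipid-phagocyte-gated cells (16, 17 and 12) held 22, 54 and 23 Ccl3 UMIs and 34, 64 and 15 Ccl4 UMIs. With 3 markers in place of 4, a gate of 52, 38 and 33 cells chosen after seeing the data, Ccl3 stood at 104, 423 and 249 CPM and Ccl4 at 94.3, 353 and 288 CPM, above resting-gated cells in each run. Ccl12 was at 186, 225 and 116 CPM there, which overlapped. In run 3, T or NK-gated cells numbered 6, of which 1 held 235 Ccl3 UMIs and 2 together held 529 Ccl4 UMIs. Ccl3 and Ccl4 are known products of cytotoxic lymphocytes.

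Transcripts of Ccl2, Ccl3 and Ccl4 were concentrated in a handful of cells. The 10 microglia-gated cells with the most UMIs of a gene held 71.4%, 74.9% and 63.9% of Ccl2 UMIs and 91.7%, 93.0% and 85.2% of Ccl7 UMIs in runs 1, 2 and 3. They held 63.0%, 57.3% and 28.1% of Ccl3 UMIs and 63.8%, 67.1% and 48.7% of Ccl4 UMIs. For Ccl12 the share was 16.3%, 10.9% and 10.1%. Only 11, 14 and 14 cells had any Ccl7 UMI, so the share of the 10 highest was bound to be large for Ccl7. The highest single cell carried 222, 293 and 179 Ccl4 UMIs and 169, 252 and 118 Ccl3 UMIs, while the median microglia-gated cell with any UMI of a gene had 1, except for Ccl7 in run 2, where it had 1.5. Without the 10 highest cells of each run, the mean level fell from 15.3 to 4.68 CPM for Ccl2, from 1.29 to 0.122 for Ccl7, from 51.6 to 27.4 for Ccl3 and from 70.8 to 28.3 for Ccl4, and from 146 to 129 for Ccl12. Run 3 was the least concentrated for Ccl3 and Ccl4.

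**Figure D2:**
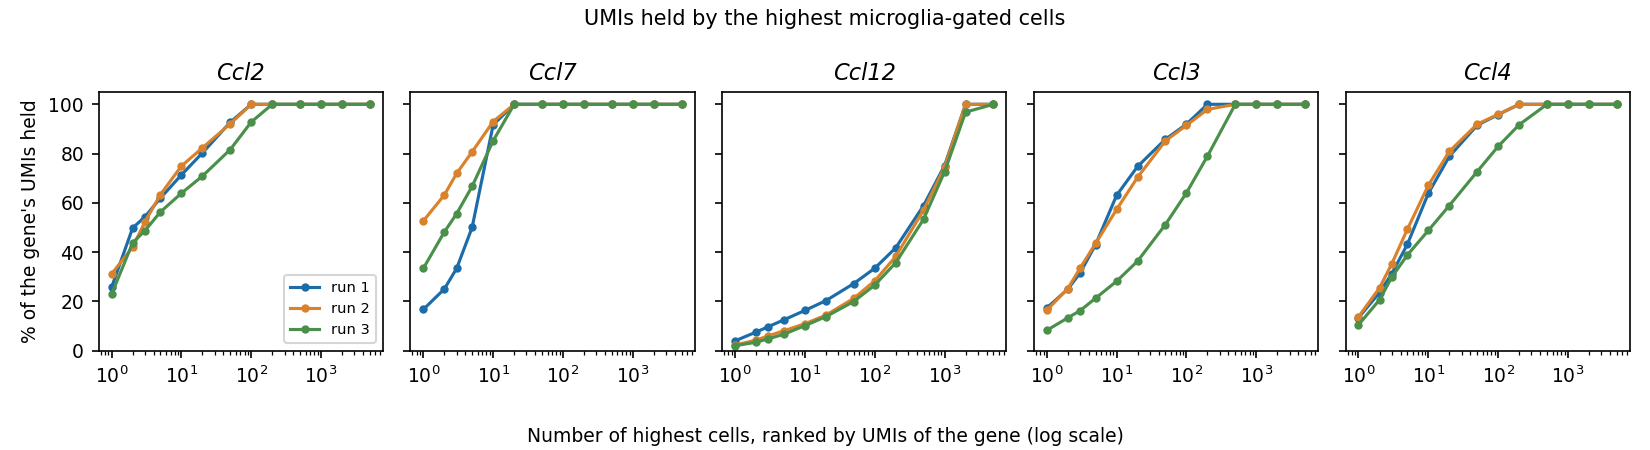
Cumulative share of a chemokine's UMIs (percent, vertical axis) against microglia-gated cells ranked from the highest (horizontal axis, log scale), with 1 line per run. The Ccl2, Ccl7, Ccl3 and Ccl4 lines rise steeply within the 10 highest cells and the Ccl12 lines do not. The Ccl7 lines rest on only 11, 14 and 14 positive cells.

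Microglia-gated cells with at least 10 UMIs of Ccl3 or Ccl4, a class chosen after seeing the data, numbered 29, 39 and 37. They held 81.4%, 85.0% and 54.3% of the UMIs of both genes. They had a median of 8 of 8 microglia markers detected in each run, where the gate required at least 4. Outside every state gate were 20, 25 and 29 of them, and 4, 10 and 6 were in the immediate early gate. Their median number of immediate early markers was 3, 2 and 3, against 0, 0 and 1 in all microglia-gated cells. Ccl2 was found in 16, 17 and 16 of them and Ccl12 in 19, 22 and 24, and 1, 2 and 0 had both sex-linked kinds.

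Ccl3 and Ccl4 were found in the same cells more often than the product of their shares gives. In thinned microglia-gated cells both had a UMI in 38, 52 and 63 cells, where the product of the shares gives 1.54, 2.84 and 11.01 cells, a ratio of 24.6, 18.3 and 5.72. Their Pearson correlation across cells was 0.703, 0.722 and 0.453 in runs 1, 2 and 3, a description over cells of 1 library each. Run 3 had the most cells with both and the lowest ratio. Ccl2 was co-detected with Ccl4 at ratios of 21.2, 22.0 and 5.64 and with Ccl3 at 24.0, 16.0 and 4.75. Ccl12 had lower ratios, at 1.95, 1.99 and 1.38 with Ccl4, 1.87, 1.82 and 1.21 with Ccl3, and 2.97, 2.71 and 2.12 with Ccl2. Such a ratio cannot exceed the inverse of the share of the commoner gene. That bound is lower for pairs with Ccl12, found in 15.03%, 18.5% and 22.4% of cells. It is also lower in run 3 for Ccl3 with Ccl4, which more cells carried there. Ratios at unlike shares therefore cannot rank pairs or runs. For Ccl7 too few cells were positive, with 0, 5 and 3 cells holding Ccl2 as well. At the thinned depth, 82.9%, 78.9% and 71.4% of cells had a UMI of none of the 5 genes.

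**Figure D3:**
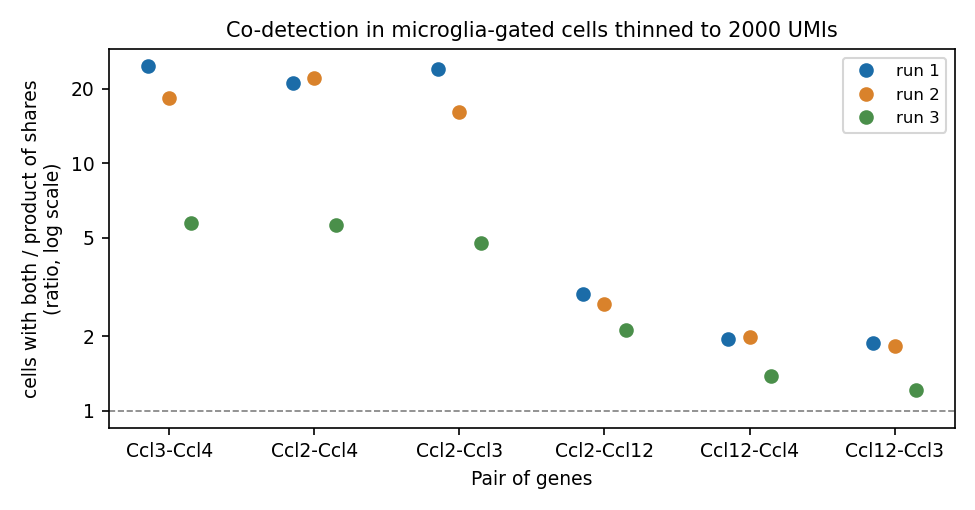
Ratio of cells with both chemokines of a pair to the number that the product of their shares gives, in microglia-gated cells thinned to 2000 UMIs, with 1 point per run. Pairs among Ccl2, Ccl3 and Ccl4 lie between 4.75 and 24.6, and pairs of Ccl12 with these genes between 1.21 and 2.97. The highest ratio possible is lower for pairs with Ccl12, which was found in more cells.

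Likeness of other genes was ranked by the median over runs of Pearson's r across 18896 thinned microglia-gated cells, among 9377 genes found in at least 1% of them. After Ccl4, the gene most like Ccl3 was Egr1, an immediate early transcription factor (median r 0.44), followed by Atf3 (0.30), Csf1 (0.20) and Cd83 (0.20). Ccl4 was followed by Egr1 (0.42), Atf3 (0.39), Cd83 (0.24) and Ier2 (0.18), and Ccl2 by Ccl4 (0.51), Ccl3 (0.48), Egr1 (0.39), Atf3 (0.23) and Ier2 (0.15). In run 3 the correlation with Egr1 was only 0.14 for Ccl3, 0.10 for Ccl4 and 0.08 for Ccl2. For Ccl12 the highest were Ifitm3 (0.14), Isg15 (0.13), Ifit3 (0.12), Ifi204 (0.12) and Ccl4 (0.12), all weak. For Ccl7 no ranked gene exceeded a median r of 0.14, which in counts this sparse is no finding. Ccl2, found in 0.937% of these cells, was not among the genes ranked. Its r with Ccl7 was -0.0015, 0.481 and 0.256 in runs 1, 2 and 3, from 0, 5 and 3 cells with both.

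To see what else differed in cells with several chemokines, thinned microglia-gated cells with a UMI of at least 2 of the 5 genes (88, 111 and 203, called chemokine-bearing) were compared with cells with none (5617, 4959 and 4169, chemokine-free). Summed counts per run went into edgeR's quasi-likelihood test, with run as block and p-values adjusted by Benjamini-Hochberg, and the 5 chemokines themselves were not tested. Of 10469 genes, 452 passed an adjusted p of 0.05 (4.32%), 317 higher in bearing cells (3.03%) and 135 lower (1.29%). Median log2 change over all tested genes was -0.04. The count was 287 without run 1, 224 without run 2 and 103 with no replicate block. Both kinds of cells were alike in depth after thinning, and before it the medians were 4791, 3967 and 3856 UMIs in bearing and 4423, 3482 and 3702 in free cells. Resting-gated cells made up 77.3%, 81.1% and 84.2% of the bearing cells. Ccl12 had a UMI in 60, 82 and 153 of the bearing cells. With Ccl12 not counted, an alternative added after seeing the data, 44, 58 and 77 bearing cells were left. Then 510 of 10245 genes passed (4.98%), 267 higher and 243 lower.

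Immediate early genes, which cells switch on within minutes of a stimulus, rose in 19 of 21 tested members (median log2 change 2.26). The transcription factors Egr3 (6.60 ± 0.63, SE), Nr4a1 (6.12 ± 0.71) and Egr2 (5.93 ± 0.66) and the stress gene Gadd45b (6.82 ± 0.58) had the largest changes of the list. Each of these was found in few bearing cells, Gadd45b in 21, Egr3 in 20, Nr4a1 in 19 and Egr2 in 19 of 402. Their means in free cells were 0.512 to 0.690 CPM, so they passed the low-count filter through the bearing sums alone. Egr1, at 165, 176 and 635 CPM in bearing and 1.16, 0.706 and 254 CPM in free cells, rose by 2.66 ± 0.17. Its level in free cells of run 3 exceeded that in bearing cells of runs 1 and 2, so the groups overlapped across runs but not within one. Without cells of the immediate early gate, 17 of 21 genes still rose, with a median of 1.18, and without the block 7 of 21 did.

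Interferon-response genes rose in 14 of 18 tested members (median log2 change 2.81), among them the antiviral effectors Ifit2 (4.37 ± 0.54, SE), Ifit1 (4.35 ± 0.56) and Ifit3 (3.48 ± 0.37) and the nucleic acid sensor Zbp1 (3.66 ± 0.94). Few cells carried this: Isg15 had a UMI in 18 of 402 bearing cells, with 108, 31.5 and 12.3 CPM against 8.99, 5.65 and 4.32 in free cells. Without interferon-gated cells, which made up 11.4%, 5.41% and 2.46% of bearing cells, 1 of 15 rose and the median was 0.12. All 9 markers of that gate are in this list, so leaving its cells out lowers the list by selection. Without run 1 the count was 7 of 18, and Ifit1 lost its call.

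Disease-associated genes, the set that microglia raise around damage and lipid debris, rose in 16 of 22 tested members (median log2 change 1.28). Lgals3 (3.94 ± 0.47, SE) and Spp1 (3.64 ± 0.50), both secreted proteins, had the largest changes. Apoe, the lipid carrier, stood at 2619, 4766 and 2357 CPM in bearing and 688, 859 and 717 CPM in free cells and rose by 2.06 ± 0.07, with no overlap of the groups. Lpl, a lipase, stood at 170, 149 and 116 against 29.2, 28.9 and 24.7 CPM and rose by 2.39 ± 0.21. Cd63, a lysosomal membrane protein, was found in 63.9% of bearing cells and rose by 1.42 ± 0.09. Axl, a phagocytic receptor, passed with 2.27 ± 0.68 but lost its call with any 1 run left out.

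Homeostatic genes, which mark microglia at rest, fell in 10 of 16 tested members (median log2 change -0.28). P2ry12, the ADP receptor that guides microglial processes, changed by -0.55 ± 0.06 (SE; adjusted p = 1.23e-16, edgeR's quasi-likelihood test), and Selplg by -0.56 ± 0.06. Tmem119 stood at 1261, 1581 and 1722 CPM in bearing and 1942, 2890 and 2156 CPM in free cells (-0.57 ± 0.07), and the groups did not overlap. The transcription factor Sall1 changed by -0.61 ± 0.13. With no replicate block, 0 of the 16 passed edgeR's test and 7 had an unadjusted p under 0.05, while DESeq2's Wald test with the block called 7.

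Other chemokines rose in 6 of 9 tested genes (median 0.75) and cytokines in 4 of 8 (median 1.11). Cxcl10, an attractant of T cells, had the largest change of all named genes, at 9.71 ± 0.51 (SE), but 15 of 402 bearing cells carried it and 1 cell held 40.3% of its UMIs. It varied widely between runs, at 5.68, 604 and 46.8 CPM in bearing and 0.267, 0.202 and 0.120 CPM in free cells. Il1b, the inflammatory cytokine, stood at 62.5, 180 and 27.1 CPM in bearing and 0.445, 0.907 and 0.600 CPM in free cells (6.94 ± 0.55), in 19 cells. Csf1, the growth factor of microglia, stood at 125, 149 and 41.9 against 8.01, 7.66 and 8.64 CPM (3.57 ± 0.29, adjusted p = 7.82e-33 in edgeR's quasi-likelihood test), in 50 cells. Tnf (2.97 ± 0.62) lost its call without run 3. Neither Ccl6 (0.53 ± 0.13) nor Ccl9 (0.75 ± 0.12), chemokines that microglia express broadly, moved by as much as 1 on the log2 scale, though both rose.

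Genes of NF-kappaB and its feedback rose in 5 of 14 (median 0.52), among them the inhibitor Nfkbia (0.94 ± 0.13, SE), the subunit Relb (1.31 ± 0.30) and the regulators Nfkbid (2.38 ± 0.41) and Nfkbiz (1.48 ± 0.41). Nfkbiz turned to -0.15 without run 3. Toll-like receptor genes passed in 1 of 16 (Tlr2, 1.11 ± 0.16) with a median of 0.12, and heat shock genes rose in 3 of 8 (median 0.28), led by Hspd1 (0.66 ± 0.17). Over all 10469 tested genes 4.32% passed, 3.03% as higher. The 1 of 16 is near that share and is no result about the Toll-like receptor list.

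Of the CC receptor genes, Ccrl2 rose (1.93 ± 0.31, SE; adjusted p = 9.04e-08, edgeR's quasi-likelihood test). It is an atypical receptor that binds chemerin, and it lost its call without run 2. Ccr1 changed by -0.44 ± 0.48, Ccr2 by -0.58 ± 0.96 and Ccr6 by 0.09 ± 1.27, and these 3 did not pass.

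The remaining genes with the largest rises were Rab7b (5.44 ± 0.79, SE), Ifi207 (5.22 ± 0.78), Rsad2 (4.89 ± 0.68), Ifit3b (4.87 ± 0.78), Ms4a7 (4.51 ± 0.60) and Cybb (4.44 ± 0.60). All 12 genes with the largest rises had a mean of only 0.196 to 1.55 CPM in free cells. Genes this low there pass the low-count filter through the bearing sums alone, so they could be found only as rises. The size and order of their changes are therefore no result. Rsad2 encodes the antiviral enzyme viperin, Cybb the catalytic subunit of the phagocyte oxidase, and Ms4a7 is known from macrophages of the brain borders. Without run 1, Ifit3b lost its call, and Ms4a7 did so without run 2. Among the 12 largest falls, led by Ttr (-2.94 ± 0.45), a choroid transcript, and Narf (-1.88 ± 0.35), only 3 passed with another random thinning. Border macrophage markers summed to 11.4, 22.5 and 86.2 CPM in bearing and 6.85, 3.93 and 6.12 CPM in free cells, from Pf4 and Mrc1, with Lyve1, F13a1 and Cd163 at 0 UMIs in bearing cells. Cells with both sex-linked kinds made up 2.27%, 4.50% and 2.96% of bearing and 2.94%, 1.75% and 2.90% of free cells.

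The counts per list were then taken with bearing cells defined by particular chemokines, in definitions added after seeing the data. With both Ccl3 and Ccl4 required (38, 52 and 63 cells), immediate early genes rose in 16 of 21 (median 2.55), disease-associated genes in 14 of 22 (1.45) and homeostatic genes fell in 10 of 16 (-0.56), while 0 of 16 interferon genes passed edgeR's test (5 had an unadjusted p under 0.05, median 0.83). With at least 2 Ccl12 UMIs and no other member (186, 241 and 274 cells), interferon genes rose in 15 of 19 (median 2.64), immediate early genes in 5 of 15 (0.28) and disease-associated genes in 5 of 21 (-0.01), and 0 of 16 homeostatic genes passed (5 had an unadjusted p under 0.05, median -0.04). Over all genes, 429 of 10212 passed with both Ccl3 and Ccl4 (4.2%, with 2.17% higher and 2.03% lower, median log2 change -0.18) and 55 of 10437 with Ccl12 alone (0.527%, with 0.469% higher and 0.0575% lower, median -0.01). Both comparisons share the chemokine-free cells. Their list medians are not over the same genes, since each comparison had its own low-count filter. Egr2, Egr3, Nr4a1, Gadd45b, Fos and Dusp2, at 2.55 to 7.85 with both Ccl3 and Ccl4, were not tested with Ccl12 alone. The immediate early medians of 2.55 and 0.28 therefore overstate the contrast on shared genes.

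**Figure D4:**
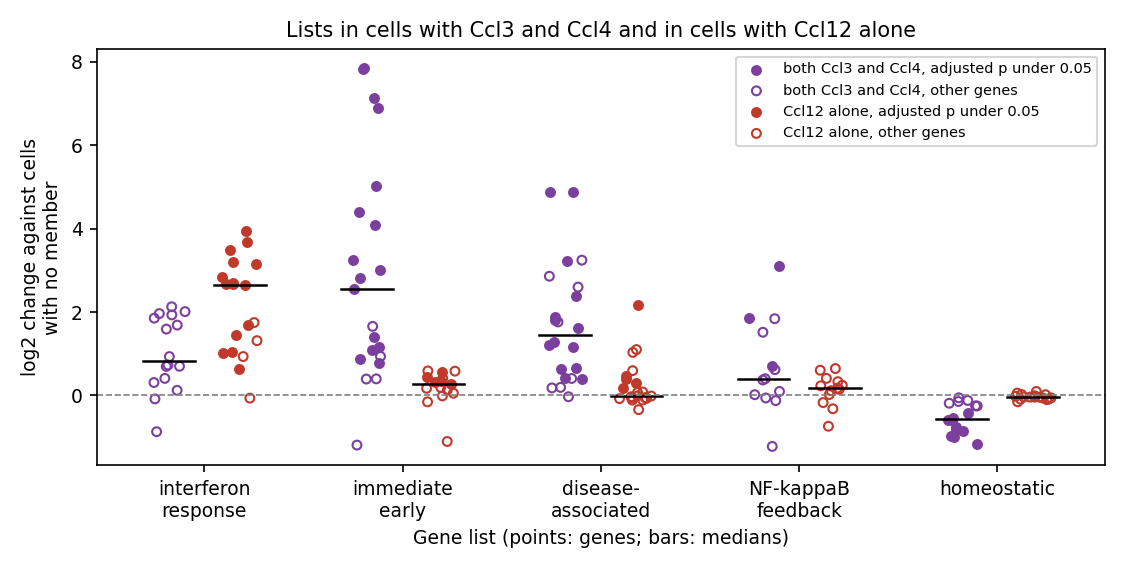
Log2 change (vertical axis) of each tested gene of 5 lists against cells with no member, in cells with both Ccl3 and Ccl4 and in cells with Ccl12 alone. Points are genes, filled where the adjusted p was under 0.05 in edgeR, and bars are list medians, which for the interferon list are 0.83 with Ccl3 and Ccl4 and 2.64 with Ccl12 alone.

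The 2 kinds were therefore set against each other, cells with both Ccl3 and Ccl4 but no Ccl12 (25, 27 and 44) against cells with Ccl12 alone, again a comparison added after seeing the data. Of 3996 genes tested, 194 passed edgeR's quasi-likelihood test (4.85%), 130 higher (3.25%) and 64 lower (1.6%) in the cells with Ccl3 and Ccl4, with a median of -0.03. The count was 93 without run 1, 73 without run 2 and 46 with no replicate block. Disease-associated genes were higher in 10 of 17 (median 0.74), immediate early genes in 7 of 12 (0.85), and homeostatic genes were lower in 7 of 16 (-0.45). Cd63 differed by 2.14 ± 0.15 (SE), Lgals3 by 5.15, Spp1 by 4.06, Atf3 by 4.61 ± 0.36 and Csf1 by 4.82 ± 0.54 (37 against 10 UMIs). Egr3 had 19 UMIs against 0. Interferon genes had a median of -0.85, with 9 of 9 tested below 0, but only Ifitm3 passed (-1.93 ± 0.62, adjusted p = 0.0441, 4 against 121 UMIs), and its call was lost with any 1 run left out. Without run 1 another gene of the list, Ifi27l2a, passed as lower. The 9 tested interferon genes, of 20 listed, had 86 UMIs in the cells with Ccl3 and Ccl4. A gene high in 1 group can pass the low-count filter through it alone, as Egr3 did. The 9 of 9 below 0 is therefore not free of selection. With no such filter, 0 of 20 passed edgeR's test, 8 had an unadjusted p under 0.05 and the median was -1.03. With no replicate block, 0 of 16 homeostatic genes passed edgeR's test and 8 had an unadjusted p under 0.05.

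Cells were last divided by sex-linked transcripts, a comparison on which the 5 genes had not been chosen. Cells with at least 2 Xist UMIs and no Y-linked UMI (2706, 3507 and 2516) were set against cells with a Y-linked UMI and no Xist (2318, 1328 and 1628). Animals were not assigned to runs, so sex and animal cannot be told apart within a run. The genes that define the classes, Xist and the Y-linked ones, were not left out of the test, so any calls of theirs were fixed in advance. Of 11436 genes, 45 passed edgeR's quasi-likelihood test (0.393%), 25 higher in Xist cells (0.219%) and 20 lower (0.175%). The count was 191 without run 2, 81 without run 3 and 5 with no replicate block. Ccl12 was 1 of them, at 143, 158 and 190 CPM in Xist cells and 94.0, 140 and 153 CPM in Y-linked cells, higher in 3 of 3 runs though the ranges overlapped. Its log2 difference was 0.37 ± 0.07 (SE; adjusted p = 0.0229, edgeR), and the call was lost without run 1 (0.23, adjusted p = 0.0778), with DESeq2's Wald test (0.36, adjusted p = 0.0539) and with no replicate block (0.34). Over all alternatives its adjusted p in edgeR or DESeq2 ran from 3.52e-13 (without run 2) to 0.9999 (no replicate block). Ccl2 stood at 6.28, 18.2 and 26.1 CPM in Xist cells and 18.6, 20.5 and 14.6 in Y-linked cells, Ccl3 at 24.3, 78.8 and 60.8 against 34.6, 46.4 and 72.2, and Ccl4 at 39.7, 106 and 89.8 against 55.0, 68.1 and 72.4. For each of these the direction changed between runs, while Ccl7, higher in Xist cells in 3 of 3 runs, rested on 58 and 16 UMIs. The 4 genes did not pass: Ccl2 differed by -0.24 ± 0.27 (adjusted p = 0.829), Ccl7 by 0.84 ± 0.42 (0.575), Ccl3 by 0.00 (0.9995) and Ccl4 by 0.16 ± 0.13 (0.749), all in edgeR. Leaving out a run gave calls for some of these in opposite directions, Ccl2 at -0.82 without run 3, Ccl3 at -0.36 without run 2 and Ccl4 at 0.45 without run 1. Of the interferon list, 1 of 19 genes passed (Oasl2, 1.47) with a median of 0.40, against a median of 0.00 over all genes. This depended on run 1: without it the list median was 0.10, with 0 higher and 1 lower in edgeR. Without run 2 or run 3 it was 0.55 and 0.50, with 10 of 19 higher each time. DESeq2's Wald test and the edgeR fit with no replicate block called 0 of 19.

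**Figure D5:**
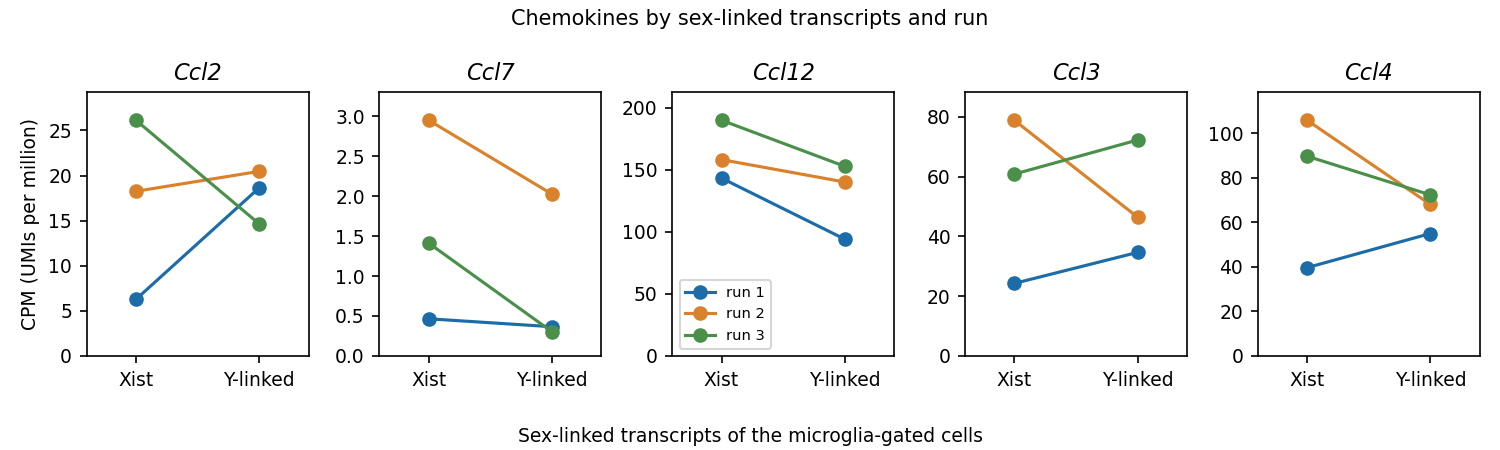
Level of each chemokine in CPM in microglia-gated cells with Xist and with Y-linked transcripts, with 1 line joining both classes of each run. Ccl12 and Ccl7 are higher in Xist cells in 3 of 3 runs, of which Ccl12 alone passed the test, and the direction of Ccl2, Ccl3 and Ccl4 changes between runs.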

How the data were processed

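Mouse hippocampal tdTomato+ cells were measured in 3 runs (10x Genomics). The authors deposited raw UMI counts per gene and barcode. Per the submitters' processing notes the build was mm10 and the tools Cell Ranger and Seurat 4.0. Per the file headers the counting software was version 3.0.2 for run 1 and 3.1.0 for runs 2 and 3. Annotation, read assignment and barcode selection are not given in the sources used here.

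The members and lists were chosen with earlier results of these data known. Cells were kept with at least 1000 UMIs, 500 genes and at most 10% mitochondrial UMIs. Totals were 34140879, 24717907 and 24225612 UMIs. Cells in more than 1 other-type gate (11) and ungated cells (36) were left out. A marker counted with 1 UMI. Gates needed at least 3 markers (border macrophage, T or NK, choroid, monocyte or neutrophil, endothelial, MHC class II, cycling), 4 (astrocyte, lipid-phagocyte, interferon) or 5 (immediate early), and the state gates may overlap. Endothelial-gated cells numbered 0 in each run. Populations under 20 cells in a run are given as UMI counts. For shares, co-detection and the bearing cells, each cell of at least 2000 UMIs was thinned to 2000 with a fixed seed.

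Counts were summed per run and group and tested with edgeR 4.0.16 (R 4.3.3; glmQLFit, glmQLFTest, TMM, filterByExpr) with Benjamini-Hochberg adjustment and a threshold of 0.05, and with DESeq2 1.42.0 as an alternative. The SE given for an edgeR log2 change is its absolute value divided by the square root of the quasi-likelihood F statistic. Python 3.11.15, NumPy 2.4.6 and SciPy 1.17.1 did the rest. The code was tested on simulated data. The 2 sums of each run share a library, so run pairs them. Their deviations from the group means correlated across genes at 0.344, 0.493 and 0.406 in runs 1, 2 and 3 for bearing against free cells, at 0.871, 0.903 and 0.862 for the sex-linked classes, and at 0.0896, 0.186 and 0.142 for cells with Ccl3 and Ccl4 against Ccl12 alone.

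Named genes were, for each direction, the 12 most changed genes that passed the threshold with at least 20 CPM in the higher group, a log2 change of at least 0.5 and 1 direction in 3 runs (ribosomal, mitochondrial and unnamed genes left out), up to 4 called genes per list, the CC receptors (of which 1 is not reported here) and the 5 genes most like a member. Others (Apoe, Cd63, Egr1, Isg15, Ccl6, Ccl9 and the genes named for Ccl3 and Ccl4 against Ccl12 alone) were chosen after their values were seen. Gene IDs matched GENCODE M21 (GRCm38) for 30934 of 31053. RefSeq promoters (GRCm38.p6) matched 2 of the 5 genes, Ccl12 and Ccl3. Clec7a and Cxcl11 were not analysed here. Alternatives changed normalization, test, filters, block, depth, gates, definitions, cells and runs.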

Additional observations from a re-analysis of the deposited data

How the results depend on the processing

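For chemokine-bearing against chemokine-free cells, 452 genes passed. DESeq2's Wald test gave 215, the fit with no replicate block 103, cells not thinned 1068, Ccl12 alone 55, and leaving out a run 224 (run 2) to 353 (run 3). A like count did not mean the same genes. Of the 420 genes called with another random thinning, 306 were among the 452. With stricter cells it was 270 of 356 and with at least 3 members 210 of 311, while with DESeq2 size factors it was 428 of 451. For cells with Ccl3 and Ccl4 against Ccl12 alone (194), the Wald test gave 58, no replicate block 46 and leaving out a run 73 (run 2) to 205 (run 3). The other alternatives of these counts, of the co-detection ratios of Ccl3 with Ccl4 and of the levels in microglia stayed within 1.5 times or 1 SD, except that without the 10 highest cells of each run Ccl2 fell to 4.68, Ccl7 to 0.122, Ccl3 to 27.4 and Ccl4 to 28.3 CPM, and that without immediate early-gated cells Ccl2 fell to 9.65 and Ccl4 to 49.6 CPM. The cause of these and of the changes in direction that follow, all log2 values, was not tested. The log2 change of Cab39l turned to 0.23 with stricter cells and 0.058 not thinned. With Ccl12 alone, Zfp760 stood at 0.19, Gpr165 at 0.035, Nfkbid at -0.74, Csf1 at -0.21, Lgals3 at -0.11, Hspd1 at -0.013 and Ccr6 at -0.87. Ccr1 was 0.15 with stricter cells and -1.27 to 0.031 with a run left out. Ccr2 was 1.65 with at least 3 members and 0.64 without counting Ccl12. Ccr6 was -0.066 with no replicate block, -0.14 not thinned and -0.54 to 0.65 with a run left out. Nfkbiz ranged from -0.15 to 1.69 and Ifit3 was -0.60 without interferon-gated cells. Between Xist and Y-linked cells, Ccl12 was 0.36 in the Wald test and 0.34 with no replicate block. With a run left out, Ccl2 ranged from -0.82 to 0.34, Ccl12 from 0.23 to 0.46, Ccl3 from -0.36 to 0.20 and Ccl4 from -0.062 to 0.45. Ccl2 was 0.11 and Ccl4 1.49 with 3 Xist and 2 Y-linked UMIs, and Ccl3 was -0.0043 with size factors and -0.012 in the Wald test. The number of genes called there ran from 5 (no replicate block) to 191 (without run 2). Ccl7 gave no value without run 2. Ccl2 and Ccl7 rest on few UMIs, and 3 runs limit every test.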

Other observations

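Astrocyte-gated cells (30, 4 and 3 in runs 1, 2 and 3) carried microglia markers at 26967, 34592 and 29852 CPM, close to the level of all cells (28878, 37910 and 29892 CPM), and Ccl12 in 5 of 37 cells (13.5%). Cycling microglia (39, 10 and 17 cells) held 135, 24 and 33 Ccl12 UMIs. Of the heat shock list, 3 of 8 genes were lower in Xist cells than in Y-linked cells in edgeR's quasi-likelihood test, the chaperones Dnaja1 (-0.39), Hspa8 (-0.39) and Hsp90ab1 (-0.26 on the log2 scale). Over all 11436 genes tested, 20 were lower (0.175%). With no replicate block, 0 of the 8 passed edgeR's test and 4 had an unadjusted p under 0.05.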
